A study of Trichoderma atroviride with 42 samples.

Results

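The catechol dioxygenase gene neighbourhood of the fungus Trichoderma atroviride is a run of 6 gene models with consecutive ID numbers, Tatro_000353-T1 to Tatro_000358-T1, out of 11786 genes in the count table. By the product texts in the authors' tables, Tatro_000353-T1 encodes an alpha/beta hydrolase fold, Tatro_000355-T1 a catechol dioxygenase N-terminal domain, Tatro_000356-T1 a FAD-binding domain, Tatro_000357-T1 a fungal transcription factor domain and Tatro_000358-T1 an amidohydrolase-related protein, while Tatro_000354-T1 has no text. The 6 genes were picked with measured values of these same libraries in view and the comparison that picked them is not recorded, so their levels and log2 differences are given as descriptions. Where the text says how many of them passed a threshold ("called"), the number stands only beside the share of all genes tested that did, and nothing is read from it. All 6 passed the filter on low counts, as did 9193 genes in all. That they lie side by side rests on the ID numbers alone, since no genome with these IDs was used here.

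Catechol dioxygenases open the aromatic ring of catechol, and the fungal enzymes of this kind usually cut between the hydroxyl groups to give muconate, which feeds the beta-ketoadipate pathway toward the tricarboxylic acid cycle. FAD-dependent monooxygenases often place the hydroxyl groups that a ring needs before it can be cut, alpha/beta hydrolases and amidohydrolases split esters, lactones and amide bonds, and genes of 1 catabolic pathway in filamentous fungi often sit next to each other with a regulator among them. The product texts name domains only, so the substrates of these 6 proteins are not known from the files. Trichoderma atroviride is a soil mycoparasite, and damage to its mycelium is known to start regeneration and conidiation.

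Wild-type mycelium was grown on potato dextrose agar under cellophane for 36 h in the dark at 27 °C. It was then cut with a scalpel (MI), grazed for 10 min by Drosophila melanogaster larvae (Dm) or grazed for 10 min by the springtail Orthonychiurus folsomi (Of), and collected after 30 or 90 min or after 4 or 8 h. Controls were untreated plates opened for 2 min: an early control, CT0, which the sample labels place at time 0 and the series text at 30 min, and a late control, CT8, at 8 h. Each of the 14 groups had 3 libraries described as biological replicates, each a pool of 3 technical replicates. Treated groups at 30 and 90 min are set against CT0 and those at 4 and 8 h against CT8, so the 3 treatments share their control libraries at each time. Library totals ran from 1152096 to 5398093 counts. The 4 shallowest libraries, each under 2000000 counts, were CT0 replicate 2, Dm 90 min replicate 3, Dm 8 h replicate 2 and Of 30 min replicate 1. Levels are counts scaled to a common library size (CPM), with library sizes adjusted by TMM factors, and since gene lengths were not used, levels are compared between groups and not between genes.

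The 6 genes together were lowest 30 min after larval grazing and were back near the control level by 4 h. Their summed level was 310 ± 49.4 CPM in CT0 (SD, n = 3) and 32.1 ± 12.8 CPM 30 min after larvae, which is 10.4% of the control. At 30 min after the scalpel it was 70.5 ± 9.50 CPM, or 22.8% of the control, and after O. folsomi it was 187 ± 17.6 CPM, or 60.5%. The FAD-binding and amidohydrolase genes make up 71.6% of the sum in CT0, so it mostly follows them, and 30 min after larvae the single genes ranged from 3.17% of CT0 for the untexted gene to 36% for the transcription factor gene. At 90 min the sums stood at 31.1% of CT0 after larvae, 42% after injury and 72% after O. folsomi. At 4 h they were 124%, 117% and 69% of CT8, and at 8 h 102%, 143% and 98.3%. These are bulk libraries, so fewer hyphal cells with the transcripts and fewer transcripts per cell cannot be told apart.

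**Figure D1:**
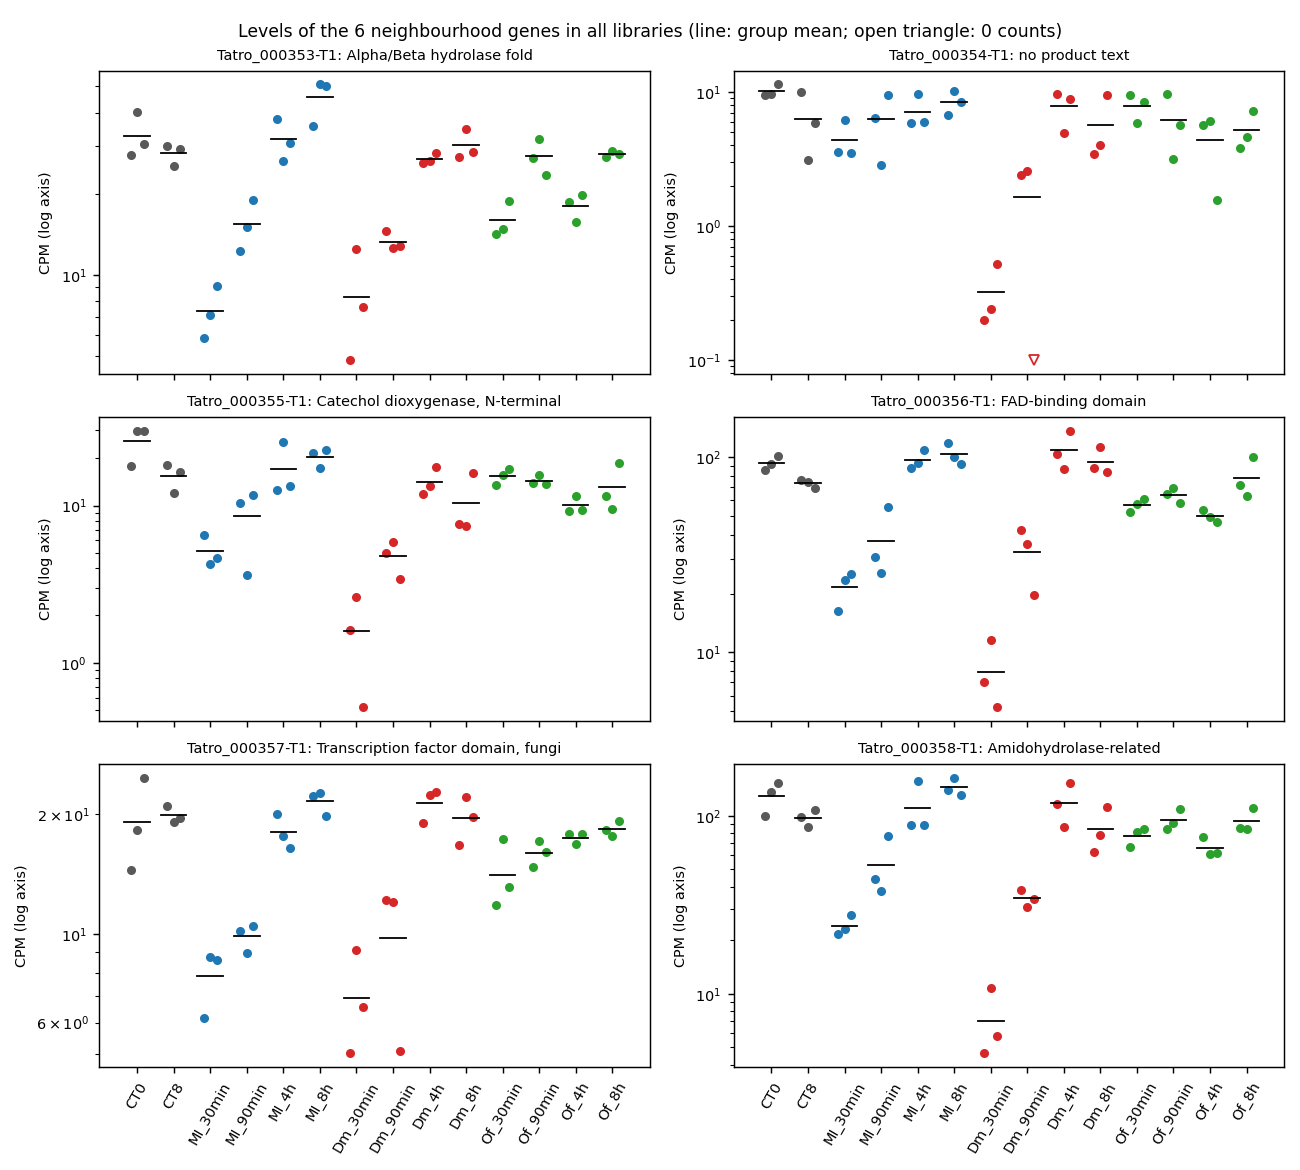
CPM on a log axis of each of the 6 genes in every library of the 14 groups, with 1 panel per gene, 1 point per library, a line at the mean of 3 and an open triangle for a library with 0 counts. Larval grazing at 30 min is the lowest of the 14 groups for 5 genes, and injury at 30 min is the lowest for the alpha/beta hydrolase gene Tatro_000353-T1.

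The catechol dioxygenase gene Tatro_000355-T1, whose text names a domain of ring-cleaving enzymes, stood at 17.8, 29.8 and 29.7 CPM in the 3 CT0 libraries. After larval grazing it was at 1.61, 2.64 and 0.526 CPM at 30 min, resting on 8, 11 and 2 counts, and at 5.0, 5.89 and 3.40 CPM at 90 min. After the scalpel it was at 6.49, 4.26 and 4.64 CPM at 30 min and at 10.4, 3.60 and 11.7 CPM at 90 min. All of these early damaged libraries lay below all 3 CT0 libraries. The log2 difference from CT0 was -3.91 ± 0.40 (SE) at 30 min and -2.27 ± 0.35 at 90 min after larvae, and -2.30 ± 0.33 and -1.46 ± 0.30 after injury. In counts summed over libraries and scaled by library size, CT0 exceeded larvae at 30 min by a ratio of 14.9, with an exact 95% interval of 9.57 to 24.6 that covers counting error only.

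At 4 h the same gene was at 11.8, 13.3 and 17.5 CPM after larvae and at 12.5, 25.4 and 13.3 CPM after injury, against 18, 12 and 16.2 CPM in CT8. Both treated groups overlapped CT8. At 8 h injured libraries were at 21.5, 17.3 and 22.4 CPM and larval libraries at 7.63, 7.37 and 16 CPM, so the injured libraries all lay above the larval ones, while each group still overlapped CT8. The log2 difference from CT8 at 8 h was 0.39 ± 0.27 after injury and -0.44 ± 0.31 after larvae, and without Dm 8 h replicate 3 the larval value was -1.04. O. folsomi libraries held 13.4, 15.5 and 17.2 CPM at 30 min, just under the lowest CT0 library, and their log2 difference of -0.66 ± 0.31 became 0.02 against CT8, the other control.

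Over the 14 groups the mean level of Tatro_000355-T1 ran from 25.8 CPM in CT0 through 20.4 and 17.1 CPM in injury at 8 and 4 h to 15.4 CPM in both CT8 and O. folsomi at 30 min. Next came O. folsomi at 90 min with 14.4 CPM, larvae at 4 h with 14.2, O. folsomi at 8 h with 13.1, larvae at 8 h with 10.3 and O. folsomi at 4 h with 10.0. The lowest were injury at 90 min with 8.56 CPM, injury at 30 min with 5.13, larvae at 90 min with 4.76 and larvae at 30 min with 1.59. Neighbours in this order overlapped in their libraries at every step but the last, where the highest library at 30 min after larvae, 2.64 CPM, lay below the lowest at 90 min, 3.40 CPM.

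The FAD-binding gene Tatro_000356-T1, whose domain is that of oxidoreductases and ring hydroxylases, stood at 85.6, 92.2 and 101 CPM in CT0. It was at 7.04, 11.5 and 5.25 CPM 30 min after larvae and at 16.2, 23.4 and 25.2 CPM 30 min after injury. No library of either group reached CT0, and every larval library lay below every injured one. At 90 min it was at 42.1, 35.8 and 19.6 CPM after larvae and at 30.7, 25.5 and 55.4 CPM after injury, which overlapped each other below CT0. By 4 h it held 104, 87.0 and 136 CPM after larvae, all above the 76.2, 74.7 and 69.4 CPM of CT8. Its log2 difference from the matched control was -3.54 ± 0.25, -1.41 ± 0.22, 0.58 ± 0.20 and 0.35 ± 0.20 at the 4 times after larvae.

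The amidohydrolase gene Tatro_000358-T1, of a family of metal-dependent hydrolases, stood at 99.2, 135 and 152 CPM in CT0. It was at 4.62, 10.8 and 5.78 CPM 30 min after larvae and at 21.8, 23.0 and 27.6 CPM 30 min after injury, again with no overlap among the 3 groups. At 90 min larval libraries held 38.4, 30.7 and 34.0 CPM, and at 8 h 62.9, 78.4 and 112 CPM. Injured libraries at 8 h held 139, 164 and 130 CPM and lay above all 3 CT8 libraries, at 98.6, 86.1 and 107 CPM. The log2 difference from CT0 at 30 min was -4.19 ± 0.30 after larvae and -2.40 ± 0.25 after injury.

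The untexted gene Tatro_000354-T1 stood at 9.53, 9.60 and 11.4 CPM in CT0 and at 0.201, 0.240 and 0.526 CPM 30 min after larvae. The 3 larval libraries held 4 of its counts in all, against 109 in CT0, and the ratio of CT0 to larvae was 33.5 with an exact 95% interval of 12.7 to 125. Its 0 counts in Dm 90 min replicate 3, a shallow library, allow up to 3 counts. After injury at 30 min it was at 3.57, 6.16 and 3.54 CPM, below CT0 and above every larval library. Its log2 difference of -1.20 ± 0.42 there was -0.52 against CT8, and its call ended with that control and also without CT0 replicate 3 (-1.09), MI 30 min replicate 1 (-1.08) or MI 30 min replicate 3 (-1.04).

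The other two genes had values closer to 0 after larvae. The transcription factor gene Tatro_000357-T1, whose domain is found in fungal regulators of pathway genes, stood at 14.5, 18.2 and 24.7 CPM in CT0, at 5.03, 9.12 and 6.57 CPM 30 min after larvae and at 6.17, 8.76 and 8.62 CPM 30 min after injury. Both damaged groups lay below CT0 and overlapped each other, with log2 differences of -1.50 ± 0.21 and -1.28 ± 0.20. At 90 min after larvae its value of -0.82 ± 0.20 became -0.51 without CT0 replicate 3, which ended its call, as did a fit of only the compared groups (-0.83). The alpha/beta hydrolase gene Tatro_000353-T1 stood at 27.8, 40.3 and 30.5 CPM in CT0, at 4.83, 12.5 and 7.62 CPM 30 min after larvae and at 5.84, 7.10 and 9.06 CPM 30 min after injury. Its log2 differences were -1.93 ± 0.22 and -2.06 ± 0.23, and the 2 damaged groups overlapped. At 8 h after injury it was at 35.7, 50.9 and 50.2 CPM, above the 30.0, 25.4 and 29.3 CPM of CT8, with a log2 difference of 0.69 ± 0.18.

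**Figure D2:**
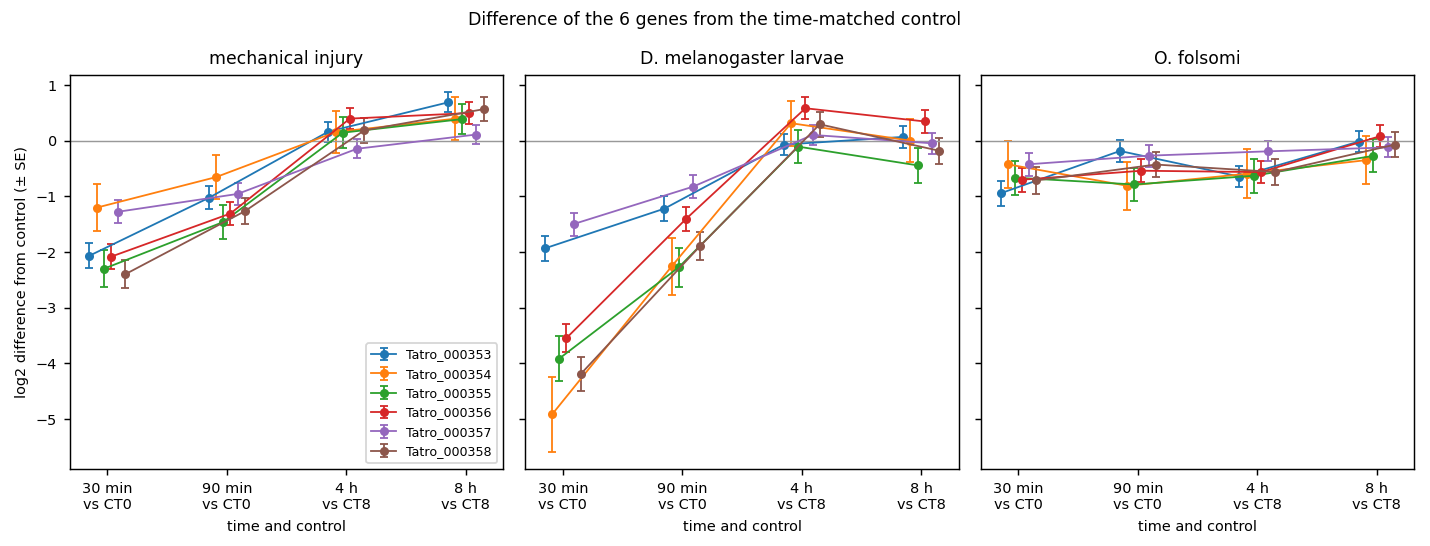
Log2 difference of the 6 genes from the time-matched control, with bars of 1 SE, in 3 panels for injury, D. melanogaster larvae and O. folsomi, each over 4 times, from the edgeR fit over all 42 libraries. At 30 min the 6 genes spread from -1.50 to -4.91 after larvae and from -1.20 to -2.40 after injury, and at 4 h all lie between -0.14 and 0.58 in both.

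Against the shared CT0 libraries, all 6 genes passed an adjusted p of 0.05 as lower at 30 min after larvae, where 20.4% of genes tested did so, and 6 at 90 min, where 17% did. After injury 6 passed as lower at 30 min, with 23.8% of genes tested, and 5 at 90 min, with 20%. After O. folsomi 3 passed at 30 min, with 3.7%, namely the alpha/beta hydrolase, FAD-binding and amidohydrolase genes, and 0 at 90 min, with 1.75%. All 3 libraries lay below all 3 of CT0 in 6 genes at each of these times after larvae and injury, as they did in 22.6% and 19.2% of genes tested after larvae and in 27.7% and 22.5% after injury. At later times 1 gene passed as higher than CT8 at 8 h after injury, the alpha/beta hydrolase gene, beside 10.9%, and 1 at 4 h after larvae, the FAD-binding gene, beside 10.8%. The latter call ended without any 1 of the 3 CT8 libraries or without Dm 4 h replicate 3. For the response at 8 h minus that at 30 min, 6 passed as higher after injury beside 19.3% of genes tested, 6 after larvae beside 14.6%, and 0 after O. folsomi beside 0.435%. The median log2 difference of the 6 genes was -3.73 after larvae and -2.07 after injury at 30 min, beside -0.02 and -0.03 over all genes tested.

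At 30 min after O. folsomi the 6 log2 differences from CT0 ran from -0.94 ± 0.22 for the alpha/beta hydrolase gene to -0.42 ± 0.20 for the transcription factor gene, and 5 of the 6 genes had all 3 libraries below CT0, as did 13.7% of genes tested. Without the 4 shallow libraries, an alternative added after seeing the data, or without any 1 of CT0 replicate 2, CT0 replicate 3 and the 3 O. folsomi libraries, 1 gene, the alpha/beta hydrolase gene, kept its call. At 4 h after O. folsomi the differences from CT8 ran from -0.64 to -0.19 and 5 genes again lay wholly below, as did 11.7% of genes tested, with 0 called beside 0.185%. At 8 h they ran from -0.35 to 0.08, and no gene was separate from CT8. When libraries are scaled by their totals alone, the median of all genes at 30 min after O. folsomi is -0.19 in place of -0.02.

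Larvae and injury were also compared directly. At 30 min larval libraries were lower by a log2 difference of -3.71 ± 0.76 for the untexted gene, -1.79 ± 0.33 for the amidohydrolase gene, -1.61 ± 0.50 for the catechol dioxygenase gene and -1.46 ± 0.28 for the FAD-binding gene, with no overlap of libraries in any of these 4, as in 22.2% of genes tested. The alpha/beta hydrolase gene at 0.13 ± 0.26 and the transcription factor gene at -0.22 ± 0.23 overlapped. In counts that, as above, only describe the chosen genes, 4 of the 6 passed as lower, beside 15.7% of genes tested, and 0 as higher, beside 15.6%. The catechol dioxygenase gene did not pass without MI 30 min replicate 1 (-1.43) or without Dm 30 min replicate 3 (-1.25).

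At 90 min the differences between larvae and injury ran from -1.61 ± 0.52 for the untexted gene to 0.13 ± 0.21 for the transcription factor gene, and 1 gene passed, the untexted one, beside 4.99% of genes tested. That call ended without the 4 shallow libraries (-1.39), and in 5 of the 6 fits that left out 1 library. At 4 h all 6 values lay between -0.25 and 0.25. At 8 h all 6 were below 0, from -0.83 ± 0.30 for the catechol dioxygenase gene to -0.15 ± 0.20 for the FAD-binding gene. There 3 genes, the alpha/beta hydrolase, catechol dioxygenase and amidohydrolase genes, had every larval library below every injured one, as did 7.15% of genes tested, and 0 passed as lower beside 0.598%.

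**Figure D3:**
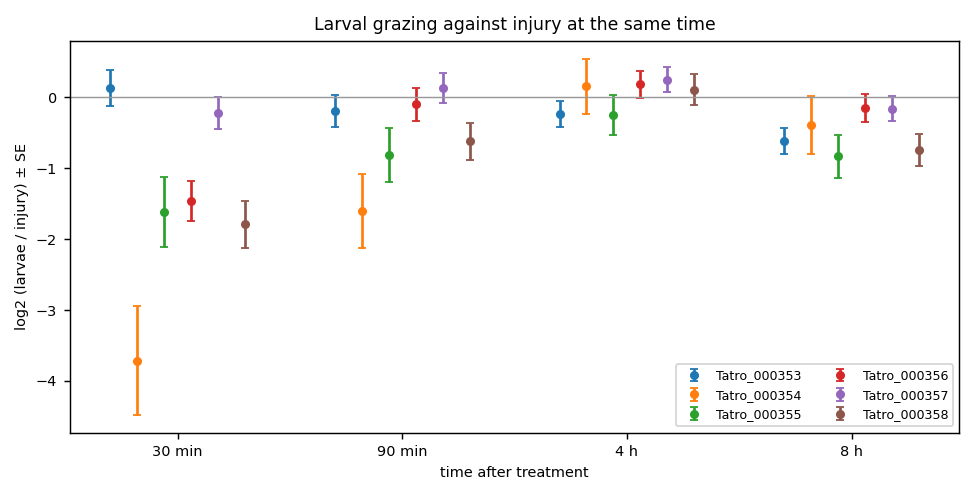
Log2 ratio of larvae to injury at the same time for the 6 genes, with bars of 1 SE. At 30 min 4 genes lie between -3.71 and -1.46 and the alpha/beta hydrolase and transcription factor genes lie at 0.13 and -0.22.

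Larvae against O. folsomi at the same time gave lower values for all 6 genes at 30 min, from -4.49 ± 0.74 for the untexted gene to -0.99 ± 0.25 for the alpha/beta hydrolase gene, and all 6 passed beside 21.1% of genes tested. At 90 min the range was -1.49 ± 0.38 for the catechol dioxygenase gene to -0.56 ± 0.21 for the transcription factor gene, and 6 passed beside 17.1%. Of these the untexted gene's call held in 4 of 12 alternatives and the transcription factor gene's in 6 of 13; both ended without the 4 shallow libraries (-1.20 and -0.37), without Dm 90 min replicate 3 (-1.22 and -0.38) and without Of 90 min replicate 3 (-1.48 and -0.56), the former also without Dm 90 min replicate 1 (-1.59) or 2 (-1.65) or Of 90 min replicate 1 (-1.03), the latter also without Of 90 min replicate 2 (-0.50). At 4 h all 6 values were above 0, from 0.29 ± 0.18 for the transcription factor gene to 1.15 ± 0.20 for the FAD-binding gene, and 3 passed as higher beside 13.4%. The alpha/beta hydrolase gene's call there held in 8 of 13 alternatives, ending without any 1 of the 3 larval libraries or without Of 4 h replicate 1 or 2 (0.48 to 0.60), and the amidohydrolase gene's ended without Dm 4 h replicate 3 (0.63). At 8 h the values ran from -0.17 ± 0.33 for the catechol dioxygenase gene to 0.35 ± 0.46 for the untexted gene, with a median of 0.08. In untreated mycelium the 6 log2 differences of CT8 from CT0 ran from -0.68 ± 0.28 for the catechol dioxygenase gene to 0.04 ± 0.18 for the transcription factor gene, and 0 passed as lower beside 3.32%.

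Genes with ID numbers on either side of the run served for comparison. Of 18 rows among the 10 ID numbers on each side, 17 passed the filter, and at 30 min after larvae 8 of these were lower, 2 higher and 7 not called by edgeR's quasi-likelihood test with Benjamini-Hochberg adjustment, beside 20.4% lower and 19.1% higher among all genes tested. On the low side Tatro_000352-T1, with the C-terminal domain of AMP-binding enzymes, was at 14.9, 17.3 and 18.7 CPM in CT0 and at 17.3, 14.9 and 22.9 CPM 30 min after larvae, a log2 difference of 0.11 ± 0.25 (adjusted p = 0.753). After injury it was at 10.4, 10.4 and 10.2 CPM, with -0.71 ± 0.27 (adjusted p = 0.0283). Tatro_000350-T1, for which the 30 min injury table gave no text, fell by 0.61 ± 0.14 on the log2 scale after larvae (edgeR adjusted p = 0.00075). After injury it fell by 0.41 ± 0.14 (edgeR adjusted p = 0.0185).

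On the high side, Tatro_000360-T1, a transporter of the major facilitator superfamily, was the nearest flanking gene on that side. It stood at 66.5, 70.1 and 75 CPM in CT0, at 20.7, 20.4 and 14.7 CPM 30 min after larvae and at 39.6, 46.4 and 43.3 CPM 30 min after injury, and the 3 groups did not overlap. It fell by 1.91 ± 0.15 after larvae (adjusted p = 9.04e-13) and by 0.71 ± 0.14 after injury (adjusted p = 6.95e-05), and it was lower after larvae than after injury by a log2 difference of -1.21 ± 0.15 (adjusted p = 5.01e-08). The next gene, Tatro_000361-T1 with an AAA+ ATPase domain, was at 0.33 ± 0.18 after larvae (adjusted p = 0.151) and rose by 0.68 ± 0.18 after injury (adjusted p = 0.00259).

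Farther out, Tatro_000363-T1, with a CFEM domain of extracellular membrane proteins, had the lowest value in the window after injury. Its log2 difference was -4.85 ± 0.62 at 30 min and -6.01 ± 0.73 at 90 min after larvae (adjusted p = 9.83e-08 and 5.62e-08) and -3.60 ± 0.57 at 30 min after injury (adjusted p = 2.48e-06), and it was still lower 4 h after larvae at -3.14 ± 0.60 (adjusted p = 0.000225), when the 6 genes stood near CT8. Tatro_000364-T1, an AAA+ ATPase, and Tatro_000365-T1, an ankyrin repeat protein, fell by 1.68 ± 0.34 and 1.31 ± 0.34 at 30 min after larvae (adjusted p = 0.000162 and 0.0019) and were higher than CT8 at 8 h, at 1.97 ± 0.25 and 2.38 ± 0.28 (adjusted p = 1.85e-07 and 3.82e-08). Tatro_000362-T1, a glycoside hydrolase of family 71, was at -0.25 ± 0.16 at 30 min after larvae (adjusted p = 0.23) and -1.11 ± 0.17 at 90 min (adjusted p = 3.15e-06). On the low side Tatro_000348-T1 was lower after larvae than after injury at 30 min by -1.33 ± 0.19 (adjusted p = 4.98e-07), and Tatro_000349-T1 was higher at 4 h by 1.23 ± 0.16 (adjusted p = 3.3e-06). Against O. folsomi, Tatro_000347-T1 was lower after larvae at 30 min by -1.13 ± 0.11 (adjusted p = 3.37e-10) and Tatro_000345-T1 higher at 90 min by 1.12 ± 0.20 (adjusted p = 3.56e-05).

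**Figure D4:**
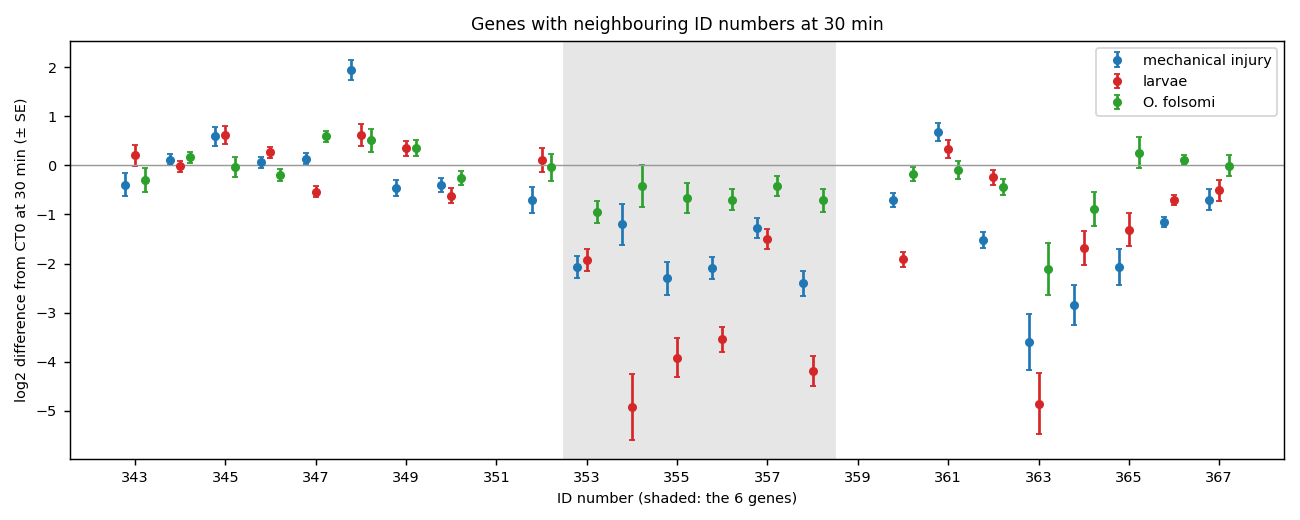
Log2 difference from CT0 at 30 min, with bars of 1 SE, of the genes with neighbouring ID numbers after injury, larvae and O. folsomi, against the last digits of the ID number, with the 6 genes shaded. Larval values in the shaded run reach -4.91, its nearest flanking genes lie at 0.11 and -1.91, and the CFEM gene Tatro_000363-T1 lies at -4.85.

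The 6 genes were correlated across the groups, with lower values within them. Pearson's r of log2 CPM over the 14 group means ran from 0.693 to 0.981 among the 15 pairs, with a median of 0.917, and was highest for the FAD-binding and amidohydrolase genes. For deviations of the 42 libraries from their group means it ran from 0.00483 to 0.646, with a median of 0.436. The pair with the highest value there was the catechol dioxygenase and amidohydrolase genes, and the lowest was the alpha/beta hydrolase and untexted genes. For comparison, over 7509 pairs of genes with adjacent ID numbers the medians were 0.168 over group means and 0.0629 within groups, and 95th percentiles 0.846 and 0.566. These r values are descriptions, since the points share libraries and the genes were picked with values of these libraries in view.

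**Figure D5:**
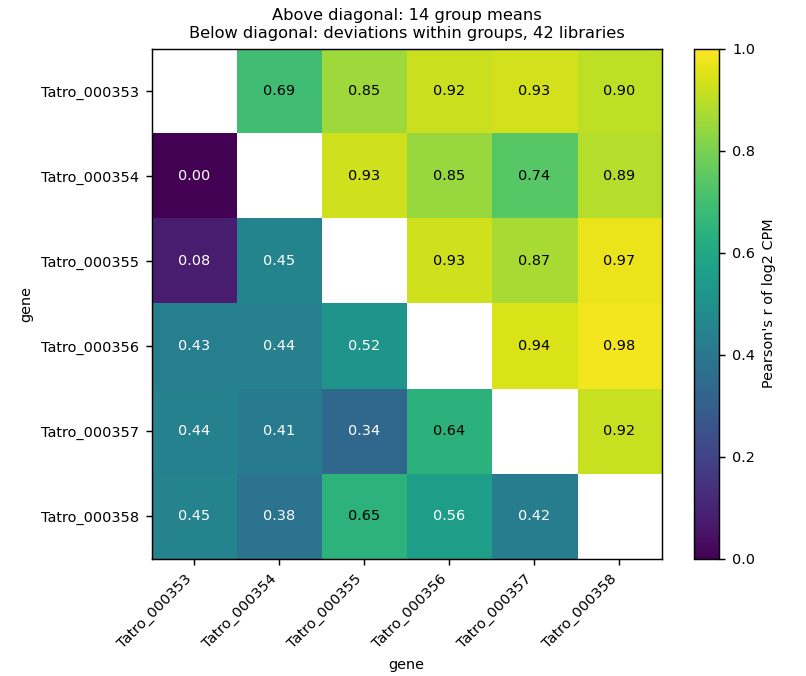
Pearson's r of log2 CPM for each pair of the 6 genes, over 14 group means above the diagonal and over the deviations of 42 libraries from their group means below it. Values above the diagonal run from 0.69 to 0.98 and those below from 0.00 to 0.65.

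Among 9192 other genes ranked by Pearson's r with Tatro_000355-T1 over the 42 libraries, the amidohydrolase gene was at rank 1 (0.932), the FAD-binding gene at 2 (0.883), the untexted gene at 3 (0.829), the transcription factor gene at 8 (0.794) and the alpha/beta hydrolase gene at 14 (0.768). The 10 most alike genes outside the run had r from 0.804 down to 0.765. They were Tatro_006625-T1 (TauD/TfdA-like domain), Tatro_003816-T1 (alpha/beta hydrolase fold), Tatro_009474-T1 (zinc cluster DNA-binding domain), Tatro_000827-T1 (acyl-CoA dehydrogenase or oxidase), Tatro_000531-T1 (alkaline phosphatase-like), Tatro_000952-T1 (GPR1/FUN34/yaaH, a family of membrane proteins), Tatro_001099-T1 (class III aminotransferase), Tatro_004575-T1 (AAA+ ATPase), Tatro_004145-T1 (AP180 N-terminal homology domain) and the flanking transporter Tatro_000360-T1. Their log2 differences at 30 min after larvae ran from -3.97 ± 0.26 for the aminotransferase to -0.88 ± 0.10 for the AP180 domain gene. The choice depends on the measure: 2 of the 10 were also among the 10 most alike by Spearman's rho, 4 by group means and 2 by deviations within groups.

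Other genes with related product texts were counted at 30 min after larvae. Product texts were taken only from the authors' 30 min injury table, so each list below was chosen on these libraries and its direction is not independent evidence. Every listed gene had changed after injury at an FDR up to 0.005. The shares over all genes tested carry no such condition, so lists and shares are not like for like. The words searched for ring cleavage and aromatic compounds matched dioxygenases of any kind. Phytanoyl-CoA, oxoglutarate/iron-dependent and AlkB-like dioxygenases, whose texts name no aromatic ring, are thus among the 13 genes found. Of these 13, 6 were lower, 2 higher and 5 not called at 30 min after larvae, with a median log2 difference of -0.23. Over all genes tested 20.4% were lower and 19.1% higher, with a median of -0.02. Indoleamine 2,3-dioxygenase, Tatro_001832-T1, which opens the indole ring of tryptophan, had log2 differences of -1.72 ± 0.17 after larvae (adjusted p = 4.39e-10) and -2.45 ± 0.18 after injury (adjusted p = 1.31e-13), and was higher after larvae than after injury by 0.73 ± 0.18 (adjusted p = 0.00165). 4-hydroxyphenylpyruvate dioxygenase, Tatro_005061-T1, which acts in tyrosine breakdown, fell by 0.96 ± 0.26 after larvae (adjusted p = 0.00348). Against injury at 30 min, 4 of the 13 were higher, 0 lower and 9 not called by edgeR, beside 15.6% higher and 15.7% lower among all genes tested.

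The same shares of all genes tested, 20.4% lower and 19.1% higher, stand beside the next 4 lists. These lists too held only genes changed after injury, so a larger share in them is not read as a result. Among 69 further alpha/beta hydrolase genes 23 were lower and 12 higher after larvae at 30 min, with a median of -0.23, and the largest changes were -4.59 ± 0.46 for Tatro_006355-T1 and -4.29 ± 0.42 for Tatro_003167-T1 (adjusted p = 4.59e-10 and 3.31e-10). A list of 61 further genes had texts that name FAD, THIF-type and DHS-like NAD/FAD folds included. Of these 25 were lower and 8 higher, with a median of -0.29. Tatro_001564-T1 fell by 3.08 ± 0.22 (edgeR adjusted p = 9.4e-14) while Tatro_000291-T1 rose by 7.32 ± 0.76 (edgeR adjusted p = 1.04e-09). The latter gene was near the floor in CT0, at 0.494 ± 0.444 CPM (SD). Its larval libraries differed widely, at 111 ± 97.0 CPM (SD), so the size of its rise is uncertain. Among 66 further fungal transcription factor domain genes 26 were lower and 13 higher, with a median of -0.31, and those with the largest changes both rose, Tatro_008005-T1 by 4.21 ± 0.29 and Tatro_010015-T1 by 1.82 ± 0.19 (adjusted p = 7.08e-14 and 1.35e-09). Among 15 further amidohydrolases 5 were lower and 0 higher, with a median of -0.39, and Tatro_002104-T1 and Tatro_007308-T1 fell by 1.55 ± 0.15 and 0.86 ± 0.14 (adjusted p = 1.66e-10 and 1.14e-05).

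At 30 min, most of the 21 listed markers of vegetative hyphae were lower after larvae and injury, but not after O. folsomi. The list could hold only genes of the authors' 30 min injury table, where FDR values run up to 0.005. A change after injury was thus a condition of entry, and hyphal genes that injury left unchanged are missing. The medians and shares over all genes tested carry no such condition. Median log2 differences of the markers were -0.46, -0.59 and 0.24 after larvae, injury and O. folsomi, beside -0.02, -0.03 and -0.02 over all genes tested. The 21 marker genes were those whose product texts name actin, tubulin or chitin synthase. Texts for actin-related, actin-capping and actin-depolymerising proteins and for a gamma-tubulin complex component were thus included. All 21 genes were detected in these libraries, which are labelled as mycelia. Their summed level ran from 10847 to 11689 CPM in CT0, from 7678 to 8573 CPM 30 min after larvae, from 7596 to 8007 CPM 30 min after injury and from 14661 to 15259 CPM 30 min after O. folsomi. At 30 min after larvae 14 of the 21 were lower and 2 higher, beside 20.4% lower and 19.1% higher among all genes tested. Beta tubulin Tatro_008989-T1 fell by 0.67 ± 0.09 and chitin synthase Tatro_003420-T1 rose by 1.03 ± 0.16 (adjusted p = 1.42e-07 and 4.98e-06). The list for aerial growth and conidia held 1 gene, a hydrophobin-type text, at 0.720 to 1.61 CPM 30 min after larvae and at 205 to 268 CPM at 8 h. That gene was at 1.72 to 3.84 CPM in CT0 and 5.13 to 10.6 CPM in CT8. At 8 h it was at 106 to 161 CPM after injury and 10.4 to 25.4 CPM after O. folsomi. The part of either list in the levels of the 6 genes was not tested.

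The authors' deposited tables of changed genes hold FDR values up to 0.005, a stricter limit than the 0.05 used here, so their counts are not comparable with those above. The authors' deposited tables list all 6 genes among 2742 at 30 min and among 1927 at 90 min after larvae, and in the authors' deposited table for 30 min the log2 fold change of the catechol dioxygenase gene is -3.60. The authors' deposited tables for injury list 5 of the 6 among 3323 genes at 30 min and 5 among 2640 at 90 min, without the untexted gene. The authors' deposited tables list 1 of the 6 among 133 genes at 30 min after O. folsomi and 1 among 824 at 8 h after injury, the alpha/beta hydrolase gene in both, and 0 of the 6 at 4 h after injury, 4 h after larvae and 8 h after larvae. The control behind each authors' deposited table is not named in its header. At 8 h after larvae the authors' deposited values were nearest to those here against the mean of both controls. Their mean absolute log2 difference over 1073 genes was 0.0487 there, 0.2 against CT0 and 0.14 against CT8. The authors' deposited -3.60 and the -3.91 against CT0 given above thus need not share a control.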

How the data were processed

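RNA of T. atroviride mycelium was sequenced from stranded total RNA libraries, 42 in all. Per the submitters' processing notes the tools were FastQC 0.11.6, HISAT2 2.1.0 and HTSeq 0.14.1; they name no genome build, annotation or strand setting, so overlapping or antisense genes could share reads. The authors deposited raw counts per gene model, and 9 tables with log2 fold changes and p-values adjusted as FDR, per the file headers.

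From the 12018 models, 1 per gene was kept (11786; the 204 genes with several models had identical counts). edgeR 4.0.16 in R 4.3.3 (filterByExpr, TMM factors, quasi-likelihood fit with 1 term per group over all 42 libraries) tested 9193 genes in 24 comparisons, of which 3 were differences of differences, with Benjamini-Hochberg adjustment within each and a threshold of 0.05. Standard errors are the log2 difference over the square root of F. The log2 CPM for r used a prior count of 2. DESeq2 1.42.0 (with limma 3.58.1 loaded) and the other alternatives are given in the closing section.

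Genes named were the 6, the 2 nearest flanking genes each side and flanking genes called with a 2-fold change in a larval comparison, the 10 most alike to Tatro_000355-T1, and up to 2 per product-text list with the largest called change at 10 CPM or more. Members and lists were chosen with earlier results of these data known. Low counts limit the precision: Tatro_000354-T1 held 4 counts in the 3 libraries at 30 min after larvae. Replicate numbers did not pair libraries: the median r of deviations was 0.00433 for equal and 0.000419 for different numbers. Intervals cover counting error only.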

Additional observations from a re-analysis of the deposited data

Results flagged for a closer look

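For injury and for larvae, the response at 8 h (against CT8) and the response at 30 min (against CT0) lay apart in all 6 genes, which drew attention to them. Since the genes were chosen on these libraries, the differences of the 2 responses are given as sizes from the edgeR fit and no test is read. After injury the log2 difference was higher at 8 h than at 30 min by 2.75 ± 0.29 (SE) for the alpha/beta hydrolase gene Tatro_000353-T1, 1.60 ± 0.57 for the untexted gene Tatro_000354-T1, 2.69 ± 0.43 for the catechol dioxygenase gene Tatro_000355-T1, 2.58 ± 0.30 for the FAD-binding gene Tatro_000356-T1, 1.39 ± 0.27 for the transcription factor gene Tatro_000357-T1 and 2.96 ± 0.34 for the amidohydrolase gene Tatro_000358-T1. After larvae it was higher by 2.00 ± 0.30, 4.92 ± 0.85, 3.47 ± 0.53, 3.89 ± 0.33, 1.45 ± 0.28 and 4.01 ± 0.38 for the same genes in that order. Among all genes tested 19.3% were higher in this sense after injury and 14.6% after larvae. After O. folsomi the 6 values ran from 0.07 to 0.93 with 0.435% of genes tested higher. The 8 h and 30 min responses rest on different controls, which differed from each other by -0.68 to 0.04 in the 6 genes (CT8 minus CT0). With CT0 at both times the catechol dioxygenase gene was at -2.30 and -0.29 after injury and at -3.91 and -1.12 after larvae.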

How the results depend on the processing

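Alternatives were DESeq2, RLE factors, library totals, no filter, the other control, the mean of both controls, a fit of only the compared groups, a replicate block and leaving out each library, plus, added after seeing the data, leaving out the 4 shallowest libraries. No called value of the 6 genes changed sign, and all 6 stayed called at 30 min after larvae in each. Of their alternative values 2017 stayed within the replicate SD and 88 did not. The cause of the moves was not tested.

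Against the other control the catechol dioxygenase gene Tatro_000355-T1 was at -1.62, -0.78, -0.53 and -0.29 over the 4 times after injury, at -3.23, -1.59, -0.78 and -1.12 after larvae, and at 0.016, -0.11, -1.31 and -0.95 after O. folsomi. Against the mean of both controls it was at 0.050 at 8 h after injury, -0.44 at 4 h after larvae and -0.32, -0.45 and -0.97 at the first 3 times after O. folsomi. Genes called of the 6 became, with the other control, 0 at 4 h after larvae, 1 at 8 h after larvae, and 1, 5 and 1 at 30 min, 4 h and 8 h after O. folsomi. With the mean of both controls they became 0 and 1 at 4 h and 8 h after larvae, and 1 and 4 at 30 min and 4 h after O. folsomi.

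At 8 h after injury 3 genes were called with RLE factors, with library totals and with only the compared groups, 2 with the replicate block and 2 without the shallowest libraries. Library totals gave 0 at 4 h after larvae. Fits of only the compared groups gave 1 at 4 h after injury, 1 at 90 min and 4 at 4 h after O. folsomi, and 0 for larvae against injury at 90 min. The replicate block gave 0 and 1 for larvae against injury at 90 min and 8 h; the block moved no other count by over 1.5 times, and the numbers do not pair the libraries. Without the shallowest libraries 1 was called at 30 min after O. folsomi and 0 for larvae against injury at 90 min.

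Leaving out 1 library gave 0 to 1 genes called at 4 h after larvae, 0 to 1 at 8 h after larvae, 1 to 3 at 30 min and 0 to 1 at 90 min after O. folsomi, and for larvae against injury 0 to 1 at 90 min and 0 to 2 at 8 h. The catechol dioxygenase gene then ran from -1.04 to -0.23 at 8 h after larvae, and from -1.43 to -0.63 for larvae against injury at 8 h, both lowest without Dm 8 h replicate 3.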
